A study of Mus musculus with 18 samples.

Results

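The genes described here encode 8 kinases or kinase-like proteins: Pim1, Pim2, Pim3, Sik1, Sik2, Sik3, Plk2 and Stk40. Their rows were found by exact symbol in each of the authors' 3 deposited tables, as 8 of 24015 rows per table, and all 8 had an adjusted p in all 3. The set was chosen by its response to neuronal activation, with the log2 fold changes of E1 over E0 known, and the less responsive relatives in the Pim and Sik families were taken along. The E1 values, and the differences between E1 values that are computed from them, are therefore given as a description. Where genes are counted as past a threshold in these comparisons, the count only describes the authors' calls or the computed differences, and nothing is inferred from it. The comparison for c-Fos overexpression used other animals, and its adjusted p-values are given. Earlier results of these data were known when the genes were chosen, so its count of called genes is not an independent test.

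RNA was sequenced from microdissected dentate gyrus of C57BL/6 mice aged 8 weeks, in 18 libraries of 6 groups with 3 libraries each, and the labels' protocols describe a library per animal. The cFos_OE mice overexpressed c-Fos, and their controls, EYFP_OE, a yellow fluorescent protein. A control hairpin was carried by shRNA-Ctrl_E0 and shRNA-Ctrl_E1, and a hairpin named for c-Fos by shRNA-cFos_E0 and shRNA-cFos_E1, and each deposited comparison takes E1 over sham, which the titles call E0. How the constructs were delivered, which promoter drove them and which cells took them up is not stated in the labels. The tables hold no values per library, so each gene is given by its group levels, estimated from the mean normalized count and the fold change of a table, and by its log2 fold change ± the authors' standard error. Defining markers of dentate granule neurons were present, with mean normalized counts of 2741 for Prox1 and 2114 for Dsp per the authors' deposited table for shRNA-Ctrl. Fos itself, the targeted gene, had a log2 fold change of 3.36 ± 0.14 with shRNA-Ctrl, 2.33 ± 0.15 with shRNA-cFos and 3.34 ± 0.20 with overexpression per the authors' deposited tables. These values are shrunken toward 0. Removing the shrinkage, at a strength assumed from the largest standard error, gave 6.02 for overexpression, calculated from the authors' deposited table. That estimate is sensitive to the assumed strength.

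Pim kinases are serine/threonine kinases that are active as soon as they are made, so that their activity follows their transcription; in blood cells they are classic targets of cytokine signalling through JAK and STAT proteins. Salt-inducible kinases (Sik) belong to the AMPK family and are switched on by the kinase Stk11 (LKB1). They hold CRTC coactivators in the cytoplasm, which restrains transcription driven by CREB. They also hold class IIa histone deacetylases there. Sik1 is itself a CREB target and so forms a feedback loop. Plk2, a polo-like kinase also called Snk, is made in neurons after strong activity and acts at dendritic spines on regulators of Ras and Rap, including the scaffold SPAR (Sipa1l1), in the scaling down of synapses. Stk40 is a kinase-like protein related to the Tribbles pseudokinases, and like them it binds the ubiquitin ligase Cop1.

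CREB binds the cyclic AMP response element (CRE), whose full form is TGACGTCA and whose shorter core is TGACG, and c-Fos acts within AP-1, whose site is TGANTCA. These motifs and the CArG box of serum response factor were searched on both strands of RefSeq promoter windows (build GRCm38.p6, 250 bases before to 50 after the annotated start), and the core lies within the full form. Of the 8 genes, 7 had a window and Sik1 had no entry. The full CRE was in 1 of these 7 genes, Plk2, against 1.79% of all 32851 windows of that length. The core was in 4 genes, Plk2, Sik2, Sik3 and Stk40, against 20.8% of all windows. No window of the 7 genes held the AP-1 site, which 7.81% of all windows held, or the CArG box, which 1.63% held. The windows at the first listed starts were rich in G and C, from 62.7% for Pim2 and Stk40 to 81.3% for Pim1, where the median of all windows was 52.7%. The stretches below show the bases just before the start on the gene's own strand, with motif matches in capitals. Pim1 is shown as the gene with the largest fold change and no match, and Sik3 as a gene with 3 core matches and no called E1 response.
Plk2, chr13:110394894-110395043, plus strand: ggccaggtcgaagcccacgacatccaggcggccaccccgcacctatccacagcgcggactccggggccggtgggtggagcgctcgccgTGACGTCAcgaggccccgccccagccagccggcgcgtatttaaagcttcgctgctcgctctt
Sik3, chr9:46012670-46012819, plus strand: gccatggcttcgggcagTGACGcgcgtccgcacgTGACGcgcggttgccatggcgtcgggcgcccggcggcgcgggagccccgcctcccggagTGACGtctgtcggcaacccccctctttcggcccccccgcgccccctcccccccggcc
Sik2, chr9:51009054-51009083, minus strand, across the start: ccggcccccTGACGtcggctcaCGTCAgcg
Stk40, chr4:126103857-126103956, plus strand: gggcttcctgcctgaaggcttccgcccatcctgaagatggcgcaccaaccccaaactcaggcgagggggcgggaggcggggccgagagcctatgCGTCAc
Pim1, chr17:29490635-29490784, plus strand: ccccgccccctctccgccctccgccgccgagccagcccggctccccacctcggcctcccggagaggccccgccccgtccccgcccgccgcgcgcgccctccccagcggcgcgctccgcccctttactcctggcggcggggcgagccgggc
A match is a description of letters. The full CRE of Plk2 lies at bases -62 to -55 from the start. A further core match of Plk2, past the printed stretch, lies at bases 22 to 26. The 3 Sik3 matches begin at -133, -116 and -57. Sik2 has its matches at the start itself, beginning at -1 and 13, and Stk40 at -6. The core therefore occurs both in genes with a called E1 response and in Sik3, which had none.

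With the control hairpin, 6 of the 8 genes were called higher at E1, 0 were lower even at an unadjusted p under 0.05, and Pim2 and Sik3 were not called. Calls here are the authors' adjusted p under 0.05, a threshold that 16.8% of all 15675 tested genes passed in the higher direction. Nothing is read from this count, since the set was chosen by this response. Within each family the members were far apart. Pim1 stood at about 65.6 normalized counts at E0 and 700 at E1, estimated from the authors' deposited table, a log2 fold change of 3.42 ± 0.16. Its rank was 14 from the highest of all tested genes per the authors' deposited table. Pim3 stood at 807 at E0 and 1701 at E1 by the same estimate, a log2 fold change of 1.08 ± 0.10 per the authors' deposited table. Pim2 stood at 818 and 885 normalized counts, with a log2 fold change of 0.11 ± 0.09 per the authors' deposited table. The Pim family thus ran from a change of 10.7-fold in Pim1 to an interval for Pim2 of -0.06 to 0.29 on the log2 scale, computed from the authors' deposited table.

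The Sik family showed the same kind of order with shRNA-Ctrl. Sik1, the CREB-driven feedback kinase, rose from 406 to 1978 normalized counts, a log2 fold change of 2.28 ± 0.08 per the authors' deposited table. Sik2 rose from 278 to 655 normalized counts, a log2 fold change of 1.24 ± 0.13 per the authors' deposited table. Sik3 stood at 2952 at E0 and 2760 at E1, with a log2 fold change of -0.10 ± 0.06 that was not called per the authors' deposited table. Sik1 and Sik2 were therefore the responsive members, and the 95% interval of Sik3, -0.22 to 0.02, lay far from both.

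Plk2 and Stk40 completed the responsive genes. Plk2, the spine kinase, rose from 2393 to 19091 normalized counts with shRNA-Ctrl, a log2 fold change of 2.996 ± 0.09 and rank 25 of all tested genes per the authors' deposited table. Stk40 rose from 534 to 1996 normalized counts, a log2 fold change of 1.90 ± 0.08 and rank 73 per the authors' deposited table. Normalized counts are not scaled to transcript length, so the levels of different genes are not compared with each other.

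**Figure D1:**
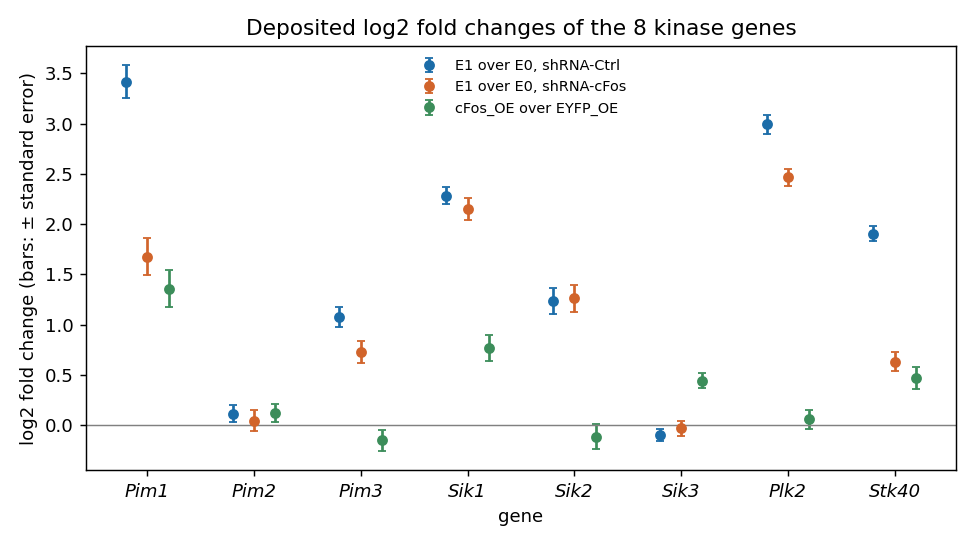
Log2 fold changes of the 8 genes (x axis) in the authors' 3 deposited tables, as points with bars of ± 1 standard error, in blue for E1 over E0 with shRNA-Ctrl, in orange for E1 over E0 with shRNA-cFos and in green for cFos_OE over EYFP_OE. Pim1 lies at 3.42, 1.68 and 1.35, while Plk2 lies at 2.996, 2.47 and 0.06.

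With shRNA-cFos, too, 6 genes were called higher at E1, the same ones, and 0 lower at either the adjusted or an unadjusted p under 0.05, where 16.3% of all 14388 tested genes were called higher. Pim1 rose from 101 to 323 normalized counts, a log2 fold change of 1.68 ± 0.18 per the authors' deposited table. Its rank fell to 61 from the highest in that table. Pim3 rose from 609 to 1007 normalized counts, a log2 fold change of 0.72 ± 0.11 per the authors' deposited table. Pim2 again stayed uncalled, at 547 and 564 normalized counts and a log2 fold change of 0.04 ± 0.10 per the authors' deposited table.

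Sik1 rose from 274 to 1219 normalized counts with shRNA-cFos, a log2 fold change of 2.15 ± 0.11 per the authors' deposited table. Sik2 went from 202 to 483 normalized counts, a log2 fold change of 1.26 ± 0.14 per the authors' deposited table. Sik3, at 2297 and 2246 normalized counts, had an uncalled log2 fold change of -0.03 ± 0.08 per the authors' deposited table. These changes were 4.45-fold for Sik1 and 2.40-fold for Sik2, beside 4.87-fold and 2.36-fold with the control hairpin, from the authors' deposited tables. Plk2 rose from 2279 to 12596 normalized counts, a log2 fold change of 2.47 ± 0.08 and rank 21 per the authors' deposited table. Stk40 rose from 706 to 1093 normalized counts, a log2 fold change of 0.63 ± 0.09 and rank 480 per the authors' deposited table. Of the 6 called genes, Stk40 thus lost the most places in the order of all genes between the arms, from 73 to 480.

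**Figure D2:**
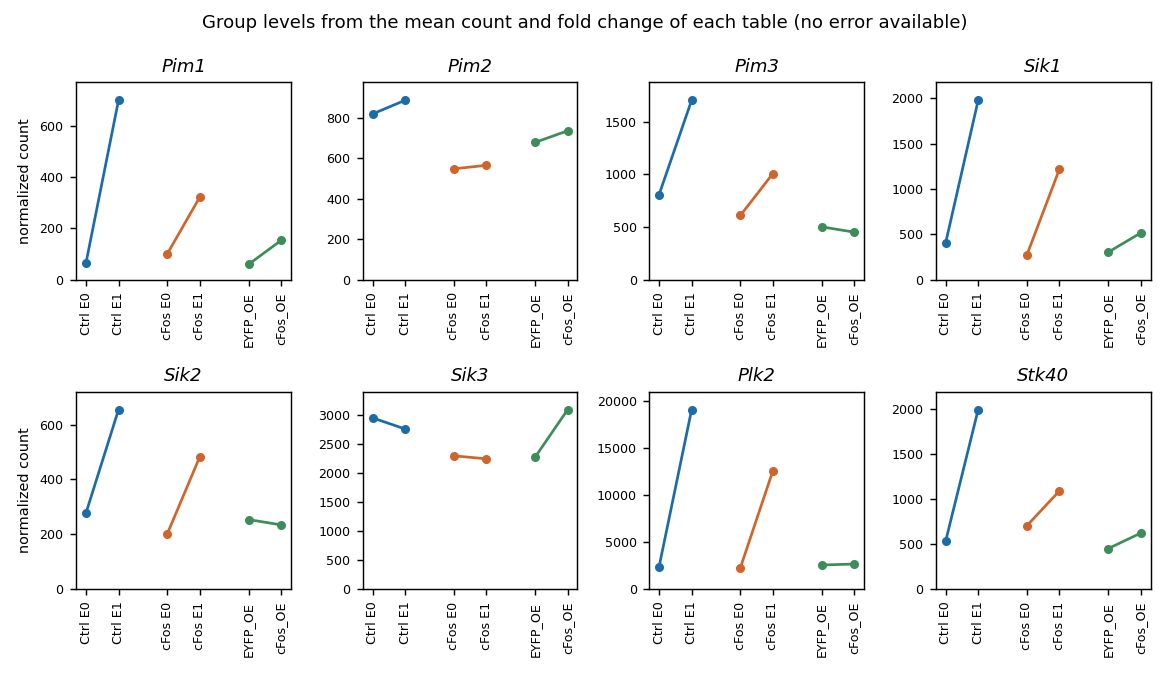
Estimated normalized counts (y axis, from 0, a separate scale per gene) in the 6 groups (x axis), each line joining the groups of a deposited table: shRNA-Ctrl at E0 and E1 in blue, shRNA-cFos at E0 and E1 in orange, EYFP_OE and cFos_OE in green. No error can be drawn, and the tables were normalized separately; Plk2 reaches 19091 at E1 with shRNA-Ctrl and 12596 with shRNA-cFos.

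The next comparison set the E1 responses of the arms against each other, as the log2 fold change with shRNA-cFos minus that with shRNA-Ctrl. Of the 8 genes, 3 had a lower response with shRNA-cFos (Pim1, Plk2 and Stk40) and 0 a higher one, at an adjusted p under 0.05 across all genes (4 lower and 0 higher at an unadjusted p under 0.05). Of all 14386 genes tested in both tables, 11.0% were called lower and 12.9% higher. A gene chosen for a high value with shRNA-Ctrl is apt to have a lower value in the other arm by that choice alone, so these differences carry no independent weight. The difference was -1.74 ± 0.24 for Pim1, calculated from the authors' deposited tables, with a response smaller by a factor of 3.34. For Stk40 it was -1.27 ± 0.12, and for Plk2 -0.53 ± 0.13, calculated from the authors' deposited tables. Fos itself had a difference of -1.03 ± 0.20 by the same computation on the authors' deposited tables.

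The other members had smaller differences. Pim3 had a difference of -0.35 ± 0.15, with an interval of -0.64 to -0.06, calculated from the authors' deposited tables. Sik1, whose E1 response was large in both arms, had a difference of -0.13 ± 0.14 with an interval of -0.40 to 0.14, calculated from the authors' deposited tables. For Sik2 the difference was 0.02 ± 0.19 (interval -0.34 to 0.39), calculated from the authors' deposited tables. Pim2 and Sik3, with little response in either arm, had differences of -0.07 ± 0.13 and 0.06 ± 0.10, calculated from the authors' deposited tables. These intervals leave room for differences of up to about 0.40 on the log2 scale for Sik1 and Sik2.

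**Figure D3:**
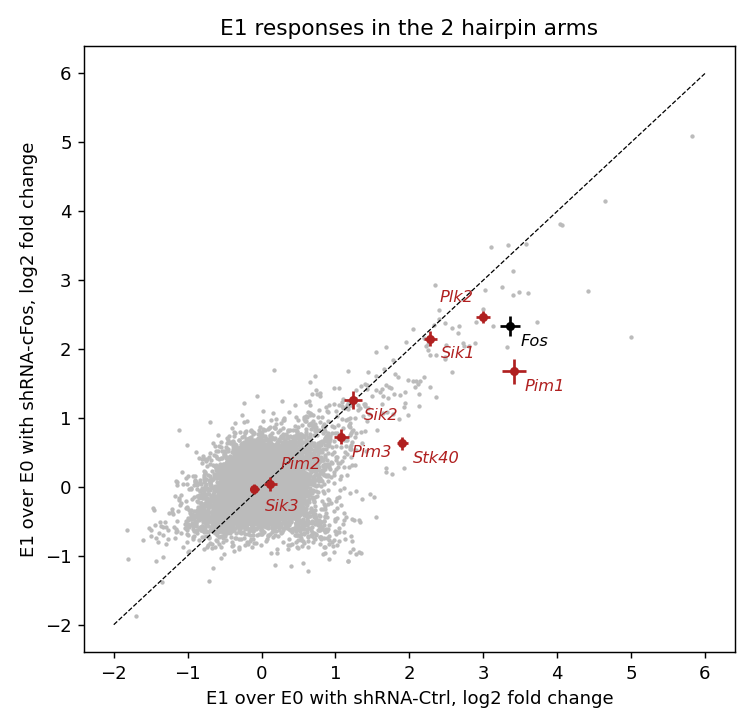
Log2 fold change of E1 over E0 with shRNA-cFos (y axis) against that with shRNA-Ctrl (x axis) for 12208 genes in grey and the 8 genes in red with bars of ± 1 standard error, Fos in black, and the dashed line of equal response. Sik1, Sik2, Pim2 and Sik3 lie close to the line, while Pim1 (3.42 and 1.68) and Stk40 (1.90 and 0.63) lie well below it.

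The levels at E0 and E1 were then set side by side for the hairpins. The shRNA tables were normalized separately, and the typical gene had a lower E0 level in the shRNA-cFos table (a median log2 shift of -0.43 among 12406 genes), so ratios between hairpins were taken after removing that shift. They carry no error and no test. For Pim1 the scaled log2 ratio (shRNA-cFos over shRNA-Ctrl) was 1.06 at E0 and -0.69 at E1, estimated from the authors' deposited tables. For Stk40 it was 0.84 at E0 and -0.44 at E1, and for Plk2 0.36 and -0.17, estimated from the authors' deposited tables. All 3 therefore started higher and ended lower with shRNA-cFos on this scale, with the larger part at E0. Fos, the target of the hairpin, was also higher at E0 (0.36) and lower at E1 (-0.67) on this scale, but with the larger part at E1. Its unscaled ratios were -0.08 and -1.11, estimated from the authors' deposited tables. Fos RNA was thus not lower at E0 with shRNA-cFos on the scaled values. Without the scaling the E0 ratio stayed above 0 for Pim1 (0.62) and Stk40 (0.40) and turned to -0.07 for Plk2, estimated from the authors' deposited tables. The unscaled E1 ratios were -1.12, -0.87 and -0.60 for Pim1, Stk40 and Plk2, so which end holds the larger part depends on the scaling. Sik1 lay at -0.13 and -0.26, Sik2 at -0.03 and -0.01, Pim3 at 0.03 and -0.32, Pim2 at -0.15 and -0.22 and Sik3 at 0.07 and 0.14, at E0 and E1 in turn, estimated from the authors' deposited tables. The 6 granule neuron markers had summed levels of 19841 at E0 and 16153 at E1 with shRNA-Ctrl, estimated from the authors' deposited table. With shRNA-cFos the sums were 8635 and 12140 by the same estimate. These sums were not scaled for the shift, so they are read within an arm, where they fell with shRNA-Ctrl and rose with shRNA-cFos. The part of these markers in the ratios of Pim1, Stk40 and Plk2 was not tested.

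**Figure D4:**
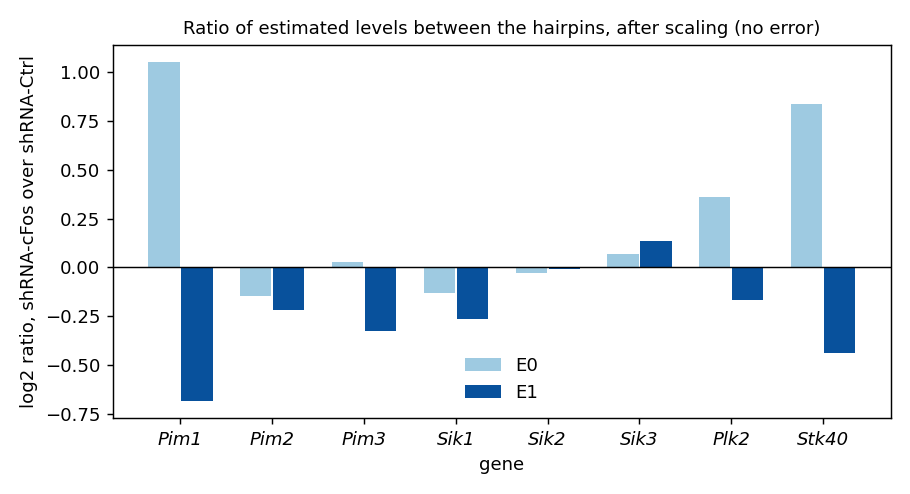
Scaled log2 ratio of estimated levels, shRNA-cFos over shRNA-Ctrl (y axis), at E0 (light bars) and E1 (dark bars) for the 8 genes (x axis), without error bars since none can be computed. Pim1 (1.06 and -0.69) and Stk40 (0.84 and -0.44) stand above 0 at E0 and below 0 at E1, while the Sik genes lie between -0.26 and 0.14.

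With c-Fos overexpression, 4 of the 8 genes were higher, 0 were lower at either the adjusted or an unadjusted p under 0.05 (DESeq2) and 4 did not pass, where 7.10% of all 15827 tested genes were called higher. Pim1 rose from about 59.9 normalized counts in EYFP_OE to 153 in cFos_OE, a log2 fold change of 1.35 ± 0.18 (DESeq2 adjusted p = 1.9e-11) per the authors' deposited table. Its rank was 60 from the highest of all tested genes there. Sik1 rose from 303 to 516 normalized counts, a log2 fold change of 0.77 ± 0.12 (adjusted p = 4.2e-08) per the authors' deposited table. These were the larger changes of the 4.

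Stk40 and Sik3 rose by less than 1.5-fold. Stk40 rose from 451 to 623 normalized counts with overexpression, a log2 fold change of 0.47 ± 0.11 (DESeq2 adjusted p = 0.00042) per the authors' deposited table. Sik3, which had no called E1 response in either arm, rose from 2275 to 3093 normalized counts, a log2 fold change of 0.44 ± 0.07 (adjusted p = 1.8e-07) per the authors' deposited table. Plk2 did not pass, at 2562 and 2669 normalized counts and a log2 fold change of 0.06 ± 0.09 (interval -0.13 to 0.24, adjusted p = 0.83) per the authors' deposited table. Plk2 was thus among the strongest genes of the E1 response and near 0 here. Pim3, Sik2 and Pim2 did not pass either, with log2 fold changes of -0.15 ± 0.11, -0.11 ± 0.12 and 0.12 ± 0.09 per the authors' deposited table and adjusted p-values of 0.45, 0.70 and 0.52. Marker genes of other cells and states moved in the same comparison, where 5.86% of all tested genes were called lower, per the authors' deposited table. Called higher were 2 of 5 microglial markers (Csf1r and Tmem119), 2 of 6 interferon response genes (Irf7 and Bst2) and 2 of 5 astrocyte markers (Gfap and Aqp4). Called lower were 1 of 5 astrocyte markers (Slc1a3), 2 of 6 granule neuron markers (Calb1 and Dsp), 3 of 4 endothelial markers and 1 of 4 pyramidal neuron markers. Their part in the rise of the 4 kinase genes was not tested.

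The genes nearest in pattern were found by the Euclidean distance of the 3 deposited log2 fold changes (shRNA-Ctrl, shRNA-cFos and overexpression, in that order below) over 12208 genes with a mean normalized count of at least 50 in each table. Nearest to Pim1 was Inhba, which encodes an activin subunit, at 3.32, 2.04 and 0.85 per the authors' deposited tables, a distance of 0.62. Frmd6 and Gadd45b followed at distances of 1.03 and 1.07, further than the nearest 3 of any other gene of the set. Nearest to Plk2 were Arid5a (2.90, 2.39 and -0.30), the synaptic scaffold gene Homer1 (3.02, 2.86 and -0.00) and Rgs2, a regulator of G-protein signalling (2.65, 2.23 and -0.06), per the authors' deposited tables. Sik1 lay nearest to Ier5 (2.48, 1.86 and 0.75), Ankrd33b and Fam107b per the authors' deposited tables. Sik2 lay within 0.13 of Gcnt2 (1.21, 1.19 and -0.19) and Ccrn4l per the authors' deposited tables. For Stk40 the nearest were Pvr, Trib1 and Midn, at distances of 0.44, 0.45 and 0.58. Pim3 lay nearest to Rnft1 (1.14, 0.69 and -0.13), Etf1 and Abca5, Pim2 to Ap1b1, Cbll1 and Sp1, and Sik3 to Rala, Card10 and Ston2, per the authors' deposited tables. No gene of the set was among the 3 nearest of another.

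The relatives of Plk2 and Stk40 were followed in lists of the pathway. As background for the counts below, calls in the lower direction made up 16.2% of all tested genes with shRNA-Ctrl, 11.7% with shRNA-cFos and 5.86% with overexpression, beside the shares in the higher direction given above (16.8%, 16.3% and 7.10%). For the difference between the arms, 11.0% of all tested genes were called lower and 12.9% higher. The lists are small and were not tested as sets. Of the 4 other polo-like kinases, Plk3 was called higher with shRNA-Ctrl (1.92 ± 0.13) and Plk5 lower (-0.47 ± 0.14), and with shRNA-cFos 0 of 4 were called (1 lower at an unadjusted p under 0.05), per the authors' deposited tables (DESeq2). The median of these 4 was -0.16 with shRNA-Ctrl and -0.24 with shRNA-cFos per the authors' deposited tables, beside 0.01 and -0.00 over all tested genes. Plk3, a stress-responsive kinase, had a lower response with shRNA-cFos by -1.64 ± 0.19, calculated from the authors' deposited tables. Among 4 genes of the Tribbles group with Cop1, Trib1 rose in both arms (1.78 ± 0.13 and 1.06 ± 0.14) per the authors' deposited tables. Trib3, a target of the stress factor Atf4, rose with shRNA-Ctrl (0.99 ± 0.29) but fell in the shRNA-cFos arm (-0.87 ± 0.26) per the authors' deposited tables. With overexpression 0 of these 4 genes were called at an adjusted p under 0.05 and 2 were higher at an unadjusted one (DESeq2). Plk5 was lower with overexpression (-0.63 ± 0.20) per the authors' deposited table.

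Known synaptic targets of Plk2 protein were followed at the level of their RNA. Of 5 such genes, 3 fell and 0 rose with shRNA-Ctrl (median -0.22), and 3 rose and 0 fell with shRNA-cFos (median 0.46), per the authors' deposited tables. The scaffold gene Sipa1l1 had a log2 fold change of -0.14 ± 0.06 with shRNA-Ctrl, per the authors' deposited table. The Rap activator gene Rapgef2 was lower with shRNA-Ctrl (-0.26 ± 0.09) and higher with shRNA-cFos (0.63 ± 0.10) per the authors' deposited tables. All 5 had a higher response with shRNA-cFos at an adjusted p under 0.05, with a median difference of 0.51 beside 0.01 over all genes, calculated from the authors' deposited tables. The 6 granule neuron markers moved with them: 4 were called lower and 1 higher with shRNA-Ctrl, and 4 higher and 0 lower with shRNA-cFos, per the authors' deposited tables. All 6 were called higher for the difference (median 0.79, calculated from the authors' deposited tables), and the part of this in the values above was not tested. In bulk tissue, fewer cells of a type and less RNA per cell cannot be told apart.

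Among the AMPK relatives of the Sik kinases, Nuak2 and Melk alone reached 1.5-fold with shRNA-Ctrl, and Melk was not called; 0 reached it with shRNA-cFos or overexpression, per the authors' deposited tables. Of 14 genes for AMPK-related kinases and Stk11, 2 rose and 5 fell with shRNA-Ctrl, with a median of -0.03 per the authors' deposited table. Nuak2, itself a stress-inducible kinase, was the largest of these at 0.93 ± 0.23, and Prkaa2, a catalytic subunit of AMPK, stood at -0.36 ± 0.12 per the authors' deposited table. With shRNA-cFos 3 of 13 tested rose and 1 fell, with Mark4 at 0.43 ± 0.10 per the authors' deposited table, and with overexpression 0 of 14 rose and 3 fell. Of 11 Sik targets and partners, 1 rose and 5 fell with shRNA-Ctrl (median -0.19) per the authors' deposited table. With shRNA-cFos 1 of the 11 rose and 2 fell (median -0.05) per the authors' deposited table. Crtc1, the neuronal CREB coactivator that Sik kinases restrain, fell with shRNA-Ctrl (-0.42 ± 0.08) and rose with shRNA-cFos (0.23 ± 0.07) per the authors' deposited tables. Crtc3 fell in both arms (-0.32 ± 0.13 and -0.43 ± 0.13), and Hdac7 was called lower with shRNA-cFos only (-0.34 ± 0.14), per the authors' deposited tables. The factor genes Mef2a and Mef2c, whose proteins class IIa deacetylases repress, fell with shRNA-Ctrl (-0.49 ± 0.10 and -0.46 ± 0.08) per the authors' deposited table. Hdac5, a class IIa deacetylase, rose with shRNA-Ctrl (0.27 ± 0.09) and was the only gene of this list called with overexpression, where it fell (-0.40 ± 0.08), per the authors' deposited tables.

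Genes for known substrates of Pim kinases came next. Of 11 genes for Pim substrates, 5 rose and 3 fell with shRNA-Ctrl (median 0.34), and 2 rose and 2 fell with shRNA-cFos (median 0.07), per the authors' deposited tables. Cdkn1a, the cell cycle inhibitor p21, rose with shRNA-Ctrl (1.76 ± 0.23) and with overexpression (0.98 ± 0.15) per the authors' deposited tables. Its response was lower with shRNA-cFos by -1.57 ± 0.28, calculated from the authors' deposited tables. Myc rose in both arms (1.11 ± 0.14 and 0.68 ± 0.16), as did Foxo3 (0.64 ± 0.09 and 0.50 ± 0.10), per the authors' deposited tables. With overexpression Cdkn1a was the only one of the 11 called higher, and Map3k5 was lower (-0.47 ± 0.10), per the authors' deposited table.

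Genes of JAK-STAT signalling were followed as well. Of 13 genes, 8 rose and 1 fell with shRNA-Ctrl (median 0.65), while 3 rose and 5 fell with shRNA-cFos (median -0.13), per the authors' deposited tables, where the shares of all genes are 16.8% and 16.2% with shRNA-Ctrl and 16.3% and 11.7% with shRNA-cFos. Socs3, a feedback inhibitor of this pathway, was higher with shRNA-Ctrl (1.33 ± 0.27) and lower with shRNA-cFos (-0.52 ± 0.19) per the authors' deposited tables. Osmr, the oncostatin M receptor, moved likewise (1.05 ± 0.18 and -0.66 ± 0.14) per the authors' deposited tables. The list did not move as a whole: the survival gene Mcl1 (1.13 ± 0.08 and 0.51 ± 0.08) and Socs2 (0.65 ± 0.14 and 0.57 ± 0.13) rose in both arms, and Cish, Il6st and Stat5b were called in neither, per the authors' deposited tables. The difference between the arms was called lower for 8 of the 13 and higher for 1 (Bcl6), with a median of -0.79, calculated from the authors' deposited tables. For all genes these shares were 11.0% and 12.9%. With overexpression 4 of 13 rose and 1 fell, among them Osmr (0.82 ± 0.18) and Socs3 (0.70 ± 0.20) per the authors' deposited table.

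**Figure D5:**
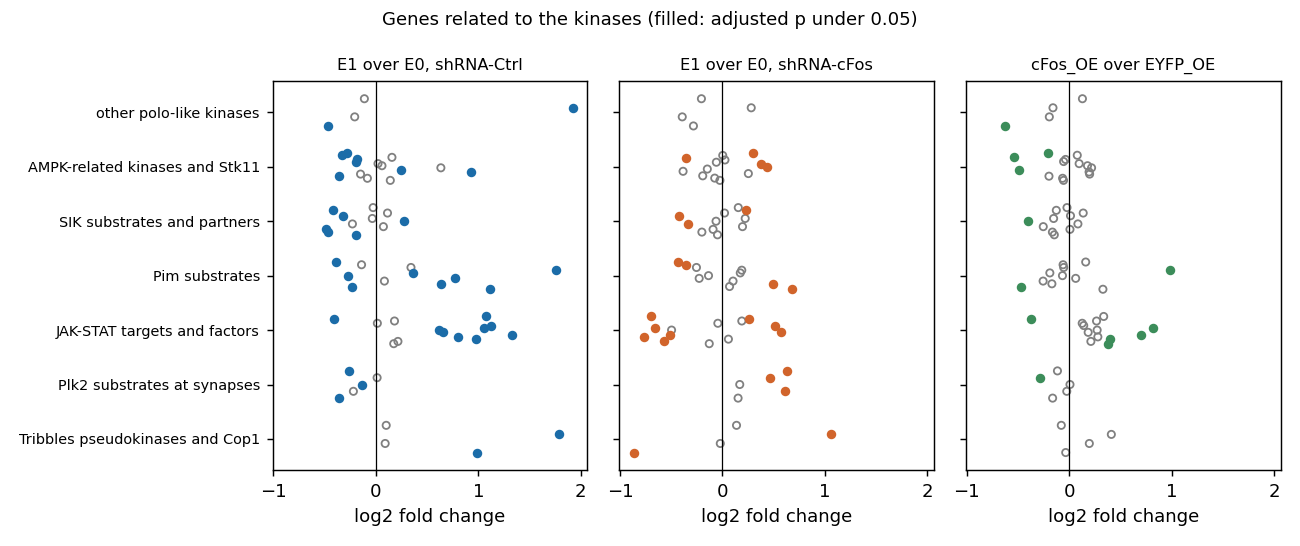
Log2 fold changes (x axis) of the genes in 7 lists related to the kinases (y axis), per the authors' deposited tables for shRNA-Ctrl (left), shRNA-cFos (middle) and overexpression (right), with filled points for adjusted p under 0.05 and open points otherwise. JAK-STAT genes lie mostly to the right with shRNA-Ctrl (median 0.65) and on both sides with shRNA-cFos (median -0.13).

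Markers of other cell types and states were read beside these results. The summed levels below were not scaled for the separate normalization of the hairpin arms (a median log2 shift of -0.43 at E0). The sums are therefore read within an arm and not between arms. The 6 interferon response genes, a list that overlaps the JAK-STAT list, had a summed level of 2127 at E0 and 4322 at E1 with shRNA-Ctrl, and 3259 and 1803 with shRNA-cFos, estimated from the authors' deposited tables. Their difference between arms was called lower for 6 of 6 (median -2.11, calculated from the authors' deposited tables). The 5 microglial markers had 4 higher with shRNA-Ctrl and 1 higher and 1 lower with shRNA-cFos per the authors' deposited tables. Their sums at E0 and E1 were 4220 and 4944 with shRNA-Ctrl, and 3053 and 3069 with shRNA-cFos. The 5 astrocyte markers summed to 40898 and 43135 with shRNA-Ctrl, 37998 and 32885 with shRNA-cFos, and 34542 and 45567 in EYFP_OE and cFos_OE, estimated from the authors' deposited tables, and none of the markers of these lists was at 0. Gfap, at a mean of 20323 normalized counts with shRNA-Ctrl per the authors' deposited table, carries much of these sums, and the markers did not move together. With shRNA-cFos Gfap was lower (-0.57 ± 0.11) while Gja1 (0.57 ± 0.08) and Slc1a3 (0.19 ± 0.08) were higher, per the authors' deposited table. With overexpression Gfap (0.86 ± 0.20) and Aqp4 (0.43 ± 0.11) were higher and Slc1a3 lower (-0.24 ± 0.06), and with shRNA-Ctrl only Aldh1l1 was called (0.45 ± 0.10), per the authors' deposited tables. The 4 oligodendrocyte markers had 0 calls at an adjusted or an unadjusted p under 0.05 in each of the authors' deposited tables (DESeq2). Of 4 markers each, pyramidal neurons had 1 lower with shRNA-Ctrl, 2 higher and 1 lower with shRNA-cFos and 1 lower with overexpression, per the authors' deposited tables. Interneuron markers had 3 of 4 higher in each hairpin arm, and endothelial markers 2 of 4 higher with shRNA-Ctrl, 1 higher with shRNA-cFos and 3 lower with overexpression, per the authors' deposited tables. The part of these cells and states in the values of Pim1, Plk2 and Stk40 was not tested.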

How the data were processed

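Values come from the authors' 3 deposited tables of comparisons. The submitters' processing notes name TopHat2, DESeq2 and build mm9; for versions, counter, annotation and strand the entry is: not given in the sources used here. Per the file headers, each row gives a mean normalized count (a signal of counts divided by size factors, averaged over libraries), a log2 fold change with its standard error, a Wald score, a p-value and an adjusted p-value. The deposited tables hold 0 columns of values per library, so depth per library is unknown, no animal could be left out, and precision is that of the authors' standard errors (median 0.11, 0.12 and 0.12 for shRNA-Ctrl, shRNA-cFos and overexpression). Rows whose gene names had become dates, 27 in number, were left out.

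Calls are the authors' Benjamini-Hochberg adjusted p under 0.05. Differences between arms were scaled by their combined standard error (added in quadrature) and given a 2-sided normal p, adjusted over 14386 genes, in Python 3.11.15 with scipy 1.17.1; intervals are 95% normal intervals. Group levels assume equal weight of both groups. The deposited log2 fold changes are shrunken toward 0, as their standard errors show, so fold changes and levels understate changes, most where the standard error is large. A prior of standard deviation 0.59, 0.53 and 0.41 was removed algebraically as an alternative. These standard deviations are an assumption, set from the largest standard error of each comparison (0.293, 0.264 and 0.205).

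Alternatives were an adjusted p of 0.01, a fold minimum of 1.5, a mean count of at least 50, centring on the median gene, and removal of the prior. The genes and the 7 related and 8 marker lists were chosen with earlier results of these data known. Named genes are all 8, Fos, up to 4 called genes of each list with the largest changes, and the 3 nearest genes of each; some genes that this rule names are not reported here. Bcl6, Melk, Prox1, Dsp, Socs2, Cish, Il6st and Stat5b were named after their values were seen. Sequences are from RefSeq promoter windows on GRCm38.p6, a later build than the tables'; their coordinates were not joined to the tables. Protein sequences were not used here.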

Additional observations from a re-analysis of the deposited data

Results flagged for a closer look

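The E1 response differed between the hairpin arms for 3 of the 8 genes by the test of the difference across all genes, and each was lower with shRNA-cFos. Of all 14386 genes tested, 11.0% were called lower and 12.9% higher by the same test. The differences, computed from the authors' deposited tables, were -1.74 for Pim1, -1.27 for Stk40 and -0.53 for Plk2. All 3 belong to a set chosen by its response with shRNA-Ctrl, so the differences are a description.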

How the results depend on the processing

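Counts of called genes among the 8 were within 1.5 times of the reported ones under the alternatives run, with a single exception. A fold minimum of 1.5 left 2 of the 4 genes called higher with overexpression, Pim1 and Sik1, computed from the authors' deposited table. The same minimum left Pim1 and Stk40 of the 3 genes with a lower response. Of 160 values for single genes under an alternative, 157 kept direction and side of the threshold, 3 lost the call to the fold minimum (Plk2 for the difference, Sik3 and Stk40 for overexpression) and 0 reversed. Most of these values could not reverse. The thresholds and the count minimum keep the same log2 fold changes, and removing the prior within a comparison rescales them without changing sign. Only centring, and removing the prior for the differences, could change a direction. At an adjusted p of 0.01, the 13 related-list calls for overexpression fell to 8, a stricter threshold on the same values. At E0 the median over the 8 genes of the log2 ratio between hairpins (shRNA-cFos over shRNA-Ctrl) was -0.38 as normalized and 0.049 after shifting the shRNA-cFos table, so the sign of ratios near 0 is set by the scaling. Removing the prior took Pim1 from 3.42 to 3.74, from 1.68 to 1.94 and from 1.35 to 1.89 in the 3 tables. For Fos it gave 3.58, 2.55 and 6.02 in place of 3.36, 2.33 and 3.34; the last has a standard error (0.203) close to the highest of its table (0.205), where the removal is most sensitive. Leaving out replicates was not run, since only comparisons were used. No paired analysis was possible because the tables hold no values per library.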
